A study of Microtus ochrogaster with 23 samples.

Results

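Fzd10 encodes a Frizzled receptor for Wnt ligands, and its methylation was read across the gene span (chr2:18708459-18711173 in MicOch1.0, 2715 bp) and 5 kb on each side, chr2:18703459-18716173. The window held 379 of the 4051749 cytosines read in any animal of the series. The gene was chosen by a measured value, the difference in methylation between “Attacker” and “Parental” males at a CpG 1701 bp from the left end of the gene, so the values and counts of calls in that contrast are given as a description, and nothing is read from them. The strand of the gene and its exons were not used here, and “left” and “right” mean lower and higher coordinates. No other annotated gene overlapped the window, and the nearest, Piwil1, began 122683 bp to the right.

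Reduced representation bisulfite sequencing (RRBS), which reads DNA cut at MspI sites after bisulfite has converted unmethylated cytosines, was done on the dentate gyrus (DG) of 23 adult wild-type prairie voles. All animals had met an unfamiliar pup before the tissue was taken. “Attacker” (n = 6) and “Parental” (n = 6) were virgin males that attacked or cared for the pup, and “Father” (n = 5) and “Mother” (n = 6) were pair-bonded males and females. Each library came from 1 animal, and the DNA held all cell types of the punched tissue, whose identity cannot be checked with marker genes in DNA data. In such bulk DNA, a lower level in each cell and fewer cells carrying methylated copies cannot be told apart.

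Frizzled proteins span the membrane and bind Wnt ligands at the cell surface, together with the Lrp5 and Lrp6 co-receptors. Binding engages Dishevelled inside the cell and keeps β-catenin from being degraded, so that it can act with Tcf and Lef factors on target genes. In the adult DG, Wnt signals are known for their part in the production of new granule neurons. CpG-rich stretches at gene starts are usually unmethylated, whereas CpGs within gene bodies and between genes are usually methylated.

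Depth over Fzd10 ranged from 5359 calls in Attacker 6 to 20694 in Father 1 (median 11767), on 232 to 292 cytosines per animal. Of the 379 cytosines, 173 were read in all 23 animals and 91 were fully covered, with 10 or more reads in each animal. Those 91 lay in the left 5 kb (47) and in the gene span (44). The right 5 kb held 17 cytosines and between 67 and 324 calls per animal, and none of its cytosines was read in every animal. Attacker 6 also stood apart in its mean over all fully covered cytosines of the series, at 6.35% beside 4.95% to 5.80% in the other animals.

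The Fzd10 window was mostly unmethylated. At the 91 fully covered cytosines, 1791 of 2093 single-animal levels (85.6%) were exactly 0. Of 189 well-covered cytosines, meaning 10 or more reads in 4 or more animals per group, 177 had a mean level under 10%, 7 had a mean over 20%, and 1, at chr2:18704154, had a mean over 80%.

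Runs of cytosines with gaps of at most 100 bp divided the window into 19 stretches, and each animal's level in a stretch was its pooled share of methylated reads. The longest stretch, chr2:18707501-18709525, covered 2025 bp and 283 cytosines and crossed the left end of the gene span. Its level was 0.986% ± 0.329 (SD, n = 6) in “Attacker”, 1.21% ± 0.483 (n = 6) in “Parental”, 1.29% ± 0.331 (n = 5) in “Father” and 1.24% ± 0.462 (n = 6) in “Mother”. Single animals ranged from 0.422% in Attacker 6 to 2.02% in Mother 6, and all 4 groups overlapped. The difference between “Father” and “Mother” was smaller than the spread between animals (exact permutation test, two-sided p = 0.844, adjusted p = 0.913).

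Levels were higher on both sides of this stretch. To the left, the level was 5.16% to 9.44% as a group mean in the 17 cytosines of chr2:18706756-18707070 and 13.5% to 20.97% in the 5 cytosines of chr2:18706483-18706602. Farther left, 21 cytosines at chr2:18704462-18704774 were again low (0.795% to 4.58%), and 6 cytosines at chr2:18704046-18704154 were at 48.2% to 66.7%. To the right, 22 cytosines inside the gene, at chr2:18709757-18710195, were at 33.4% to 49.6%. The left part of Fzd10 was thus nearly unmethylated in every animal, while the part read to the right of it was at an intermediate level.

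**Figure D1:**
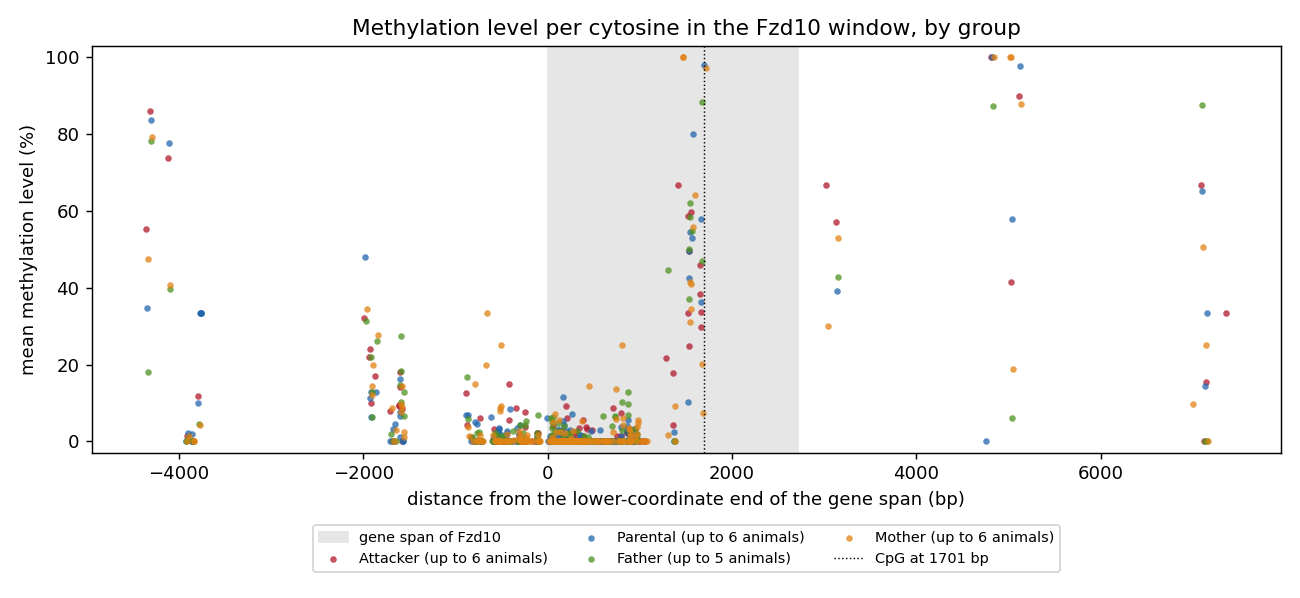
Mean methylation level (%) of each cytosine in each group against its distance in bp from the left end of the Fzd10 gene span, over animals with at least 10 reads and for groups with at least 3 such animals; the 4 groups are shifted slightly sideways, the grey band is the gene span and the dotted line the CpG at 1701 bp. Levels lie close to 0 across the left end of the gene and are spread widely at 1298 to 1736 bp and outside the gene.

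The stretch that holds the CpG for which Fzd10 was chosen had group means between 33.4% and 49.6%. Its levels include the reads of that CpG, so those of “Attacker” and “Parental” rest in part on the values that chose the gene. No level without that CpG was computed. In “Attacker”, the levels of the 6 animals were 11.3%, 30.6%, 31.8%, 33.7%, 42.5% and 50.2% (mean 33.4% ± 13.2, SD). In “Parental”, they ran from 27.5% to 66.8% (49.6% ± 14.9, n = 6). In “Father”, they were 31.9%, 42.5%, 43.5%, 58.6% and 59.0% (47.1% ± 11.6). The “Mother” levels ran from 25.4% to 63.7% (42.0% ± 14.6, n = 6). “Attacker” had the lowest mean, but its animals overlapped those of every other group. “Father” and “Mother” differed by 5.13 percentage points (exact permutation test, two-sided p = 0.519, adjusted p = 0.860).

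Within that stretch the levels of single cytosines were far apart in animals of the same group. At chr2:18710024, 1565 bp from the left end of the gene, 20 animals had 10 or more reads, and “Attacker” animals ranged from 0 of 10 reads in Attacker 4 to 23 of 23 in Attacker 5. At the same cytosine, “Father” animals ranged from 20.9% to 100% and “Mother” animals from 17.6% to 97.4%. Its group means were nevertheless close, between 52.9% and 59.8%. That was not so at every cytosine of the stretch. At chr2:18710002, group means ran from 24.8% ± 21.4 (SD, n = 5) in “Attacker” to 58.4% ± 35.6 (n = 4) in “Father”.

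Neighbouring cytosines that can be both strands of 1 CpG also disagreed within an animal. The positions chr2:18709990 and chr2:18709991 had means of 39.9% and 39.1% over the 16 animals with at least 10 reads at both, yet within an animal they differed by 44.0 percentage points on average. At chr2:18710001 and chr2:18710002 this difference was 40.1 points over 16 animals. These positions had the same read counts in every animal as chr2:18709990 and chr2:18709991, respectively, so the pairs are not independent. In the unmethylated stretch the corresponding difference was at most 11.8 points.

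Over the window, 50 combinations of cytosine and group had at least 4 animals with 10 reads and a mean between 20% and 80%. Their median SD between animals was 33.0 points, whereas reads counted at random from 1 shared level would give 9.36 points. Of their 243 single-animal values, 77 (31.7%) were exactly 0% or 100%. Across the whole series the same measures were 33.6 points, 8.98 points and 38.0%, so this spread was not particular to Fzd10. Intervals from read counts cover counting error only, since the reads carry no molecular identifiers.

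The CpG by which Fzd10 was chosen lies 1701 bp from the left end of the gene and was read in 16 of 23 animals. It had no reads in 3 of the “Attacker” animals. In the others, methylated reads were 0 of 16 in Attacker 1 (Wilson 95% interval of the level, 0 to 19.4%), 0 of 3 in Attacker 2 (0 to 56.2%) and 14 of 14 in Attacker 4 (78.5% to 100%). The “Attacker” mean of 33.3% ± 57.7 (SD, n = 3) therefore averaged 2 animals at 0% and 1 at 100%.

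All 6 “Parental” animals had reads at this CpG, namely 23 of 23, 11 of 11, 9 of 10, 0 of 1, 33 of 33 and 20 of 20 methylated. Their mean was 81.7% ± 40.2 (SD, n = 6), with Parental 4 at 0% from a single read, and over the 5 animals with at least 10 reads it was 98.0% ± 4.47. “Father” had 4 of 4, 16 of 17 and 5 of 6 (92.5% ± 8.45, n = 3), and “Mother” had 23 of 25, 3 of 3, 23 of 23 and 11 of 11 (98.0% ± 4.00, n = 4). With reads pooled over animals, the level was 42.4% of 33 reads in “Attacker” and 98.0% of 98 in “Parental”. It was 92.6% of 27 in “Father” and 96.8% of 62 in “Mother”. Reads are not replicates of a group, so no interval is given for these shares.

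Apart from 1 “Parental” animal with 1 read, the CpG was at 83.3% or above in every animal read outside “Attacker”, and “Attacker” held animals at both ends. These are the values that chose the gene, and no test is attached to them. The fitted difference of “Father” from “Mother”, which the choice did not use, was -5.60 points (beta-binomial Wald p = 0.715, adjusted p = 1). Its partner on the other strand was read in no animal. Without the 2 animals that had under 4 reads in “Attacker” and “Parental”, the “Attacker” mean rests on 2 animals, 1 at 0% and 1 at 100%.

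**Figure D2:**
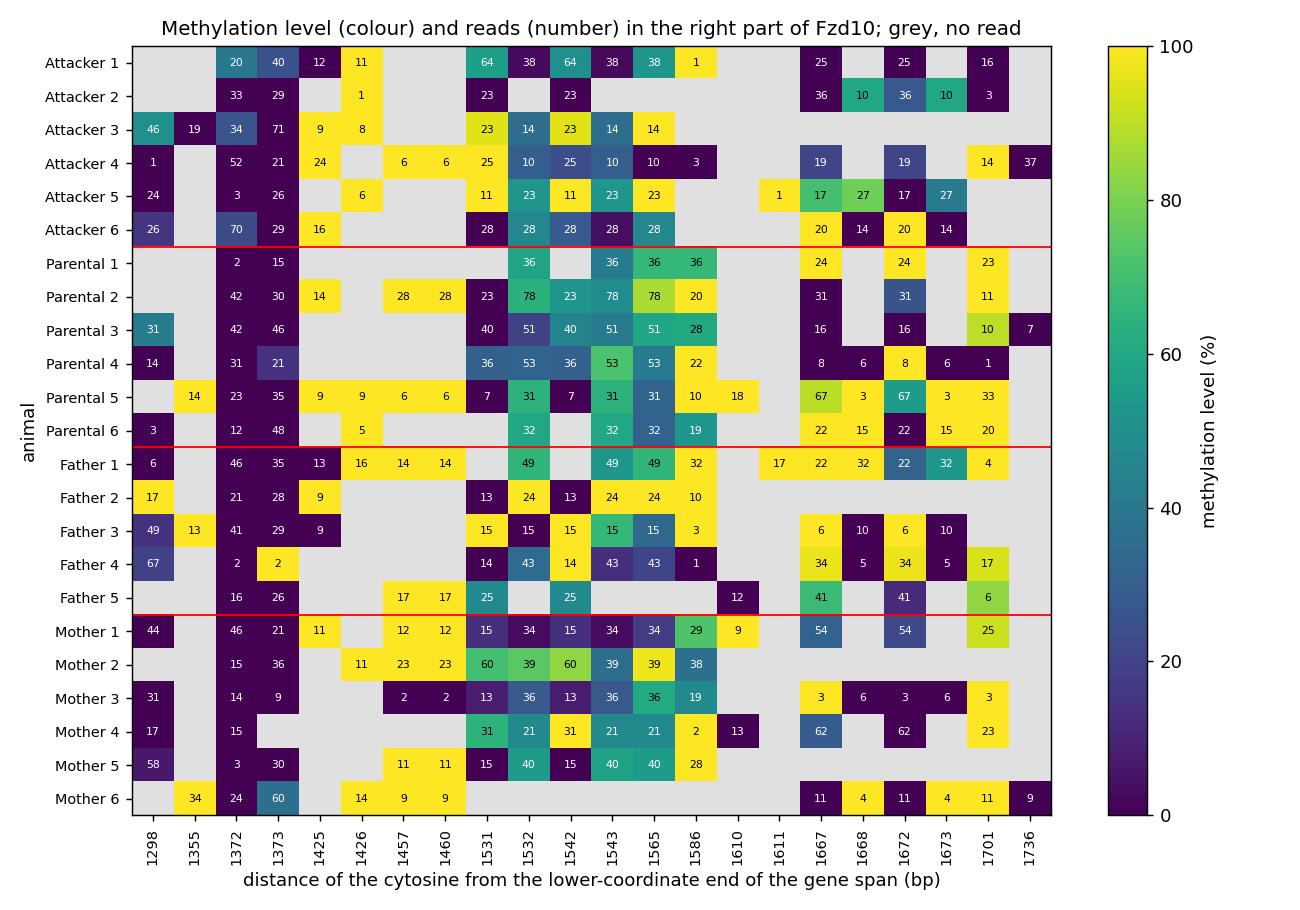
Level (colour, 0 to 100%) and number of reads (figures in the cells) for each animal (rows, groups separated by red lines) at the 22 cytosines between 1298 and 1736 bp from the left end of Fzd10 (columns), with grey for no read. Within 1 group a column often holds animals at both ends of the scale, and the column at 1701 bp is high in all animals with more than 1 read outside “Attacker”.

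In the comparison of “Attacker” with “Parental”, 0 of 321 cytosines tested in the Fzd10 window passed the call, beside 0.733% of all cytosines. The call is a score below 0.05, the fitted probability that the groups lie within 15 percentage points of each other. The CpG at 1701 bp had a fitted difference of -51.3 ± 29.7 points (SE), and of -60.04 ± 27.6 points when read weights were scaled over the animals with reads. With those weights 8 cytosines of the window and 4.45% of all were called. The CpG at 1701 bp was among those 8 (score 0.0483, beside 0.0975 with the main weights). With the main weights, no cytosine of the window had an unadjusted Wald p under 0.05 (0.909% of all cytosines did), and none had an adjusted p under 0.05 (0.0164%). An arcsine-link model of the same counts called 4 (4.34% of all cytosines).

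“Attacker” against “Father” and “Parental” against “Father” share animals with that contrast. “Attacker” against “Father” had 1 of 310 cytosines called in the Fzd10 window, beside 0.905% of all cytosines, and 0 by adjusted p, beside 0.0313%. “Parental” against “Father” had 0 of 315 called, beside 1.12% (1 with an unadjusted Wald p under 0.05, beside 1.37%, 6 by the arcsine-link model, beside 4.19%, and 0 by adjusted p, beside 0.0521%). “Father” against “Mother”, independent of the choice of the gene, had 1 of 318 called, beside 1.1% of all cytosines, and 0 by adjusted p, beside 0.0495%. With the other read weights these 3 comparisons had 6, 6 and 9 cytosines called, beside 4.59%, 4.43% and 4.57%. With the arcsine-link model, “Attacker” against “Father” had 6 and “Father” against “Mother” 7, beside 4.49% and 4.37%. By the main call, the shares within Fzd10 were below the background in these 3 comparisons.

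Both calls fell on the same cytosine of Fzd10, chr2:18707782, to the left of the gene. It had reads in 1 “Father” only, with 7 of 7 methylated in Father 5. All reads were unmethylated in the 3 “Attacker” animals read (0 of 3, 0 of 7 and 0 of 21) and in the 3 “Mother” animals read (0 of 10, 0 of 7 and 0 of 2). The fitted difference of “Father” from “Mother” was 74.0 ± 32.3 points (SE; beta-binomial Wald p = 0.0219, adjusted p = 1), and that of “Attacker” from “Father” was -73.8 ± 32.6 points (p = 0.0236, adjusted p = 1). The “Father” side of both thus rests on 1 animal and 7 reads, and this cytosine could not be tested without that animal. The adjoining cytosine, chr2:18707783, which can be the other strand of the same CpG, went the other way. Methylated reads there were 0 of 8, 0 of 6 and 0 of 9 in “Father” and 9 of 9, 3 of 10 and 5 of 5 in “Attacker”. The fitted difference of “Attacker” from “Father” was 61.5 ± 29.8 points (SE; beta-binomial Wald p = 0.0390), which did not pass the main call (score 0.0542).

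No cytosine of Fzd10 that was well covered in both groups compared passed the call, out of 197, 195, 190 and 201 tested in the 4 comparisons. Across all cytosines covered that well, 0.0373%, 0.0426%, 0.0421% and 0.0546% passed. Among them, 1 of the 201 in “Father” against “Mother” had an unadjusted Wald p under 0.05, and 0 did in the other comparisons.

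That cytosine, chr2:18704114, lies in the methylated stretch at the left edge of the Fzd10 window. The levels were 0%, 16%, 20.7%, 21.7% and 32.2% in “Father” and 35.3%, 36.0%, 48.1%, 51.8%, 54.9% and 59.0% in “Mother”, from 34 to 156 reads per animal. The groups did not overlap, but the share of all cytosines whose groups separate in this way was not computed, so nothing is read from it. The fitted difference of “Father” from “Mother” at this cytosine was -27.5 ± 12.8 points (SE; beta-binomial Wald p = 0.0324, adjusted p = 1). It did not pass the call (score 0.165) but did with the other read weights (-28.6 ± 8.09 points, score 0.0466), which called 4.57% of all cytosines, and 1.38% of all cytosines had a Wald p under 0.05 with a difference over 15 points in this comparison. The “Attacker” animals spanned 8.62% to 100% at the same cytosine and the “Parental” animals 4.35% to 53.1%.

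The stretch that holds chr2:18704114 was lower in “Father” (48.2% ± 13.1, SD, n = 5) than in “Mother” (63.5% ± 7.14, n = 6), but not beyond what 23 tests of stretches allow (exact permutation test, two-sided p = 0.0390, adjusted p = 0.438). No adjusted value of the 23 tests was lower. In both groups the stretch was read only at chr2:18704114 and chr2:18704154, so its level is not separate from that of chr2:18704114. At chr2:18704154 the levels were close, 78.2% ± 15.2 in “Father” (n = 5) and 79.3% ± 8.62 in “Mother” (n = 6). In the right 5 kb, the 5 cytosines of chr2:18713465-18713621 were at 35.7% ± 47.4 in 4 “Father” animals and 78.5% ± 11.2 in 5 “Mother” animals (exact permutation test, two-sided p = 0.127, adjusted p = 0.438). Of those “Father” animals, 2 had no methylated call, among 14 and 52 calls summed over these cytosines.

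**Figure D3:**
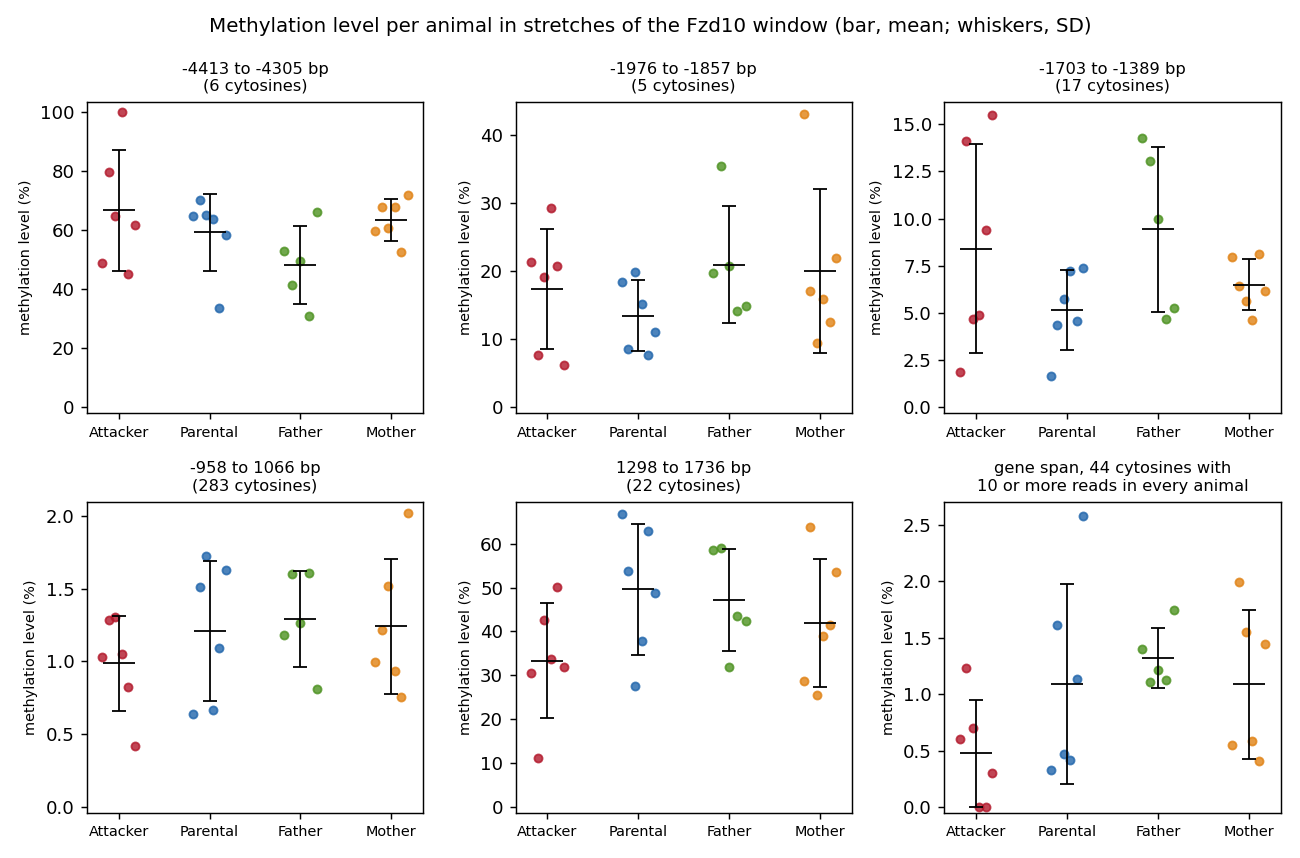
Level (%) of each animal (points), with group mean (bar) and SD (whiskers), in 5 stretches of the Fzd10 window named by their distance in bp from the left end of the gene, and over the 44 fully covered cytosines of the gene span; each panel has its own scale from 0. Groups overlap in the 5 stretches, and in the gene span the “Father” points sit between 1.11% and 1.75%, above all but 1 of the “Attacker” points.

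Averaged over the 91 fully covered cytosines, the Fzd10 level was 2.84% ± 0.889 in “Attacker”, 2.75% ± 0.850 in “Parental”, 3.13% ± 0.587 in “Father” and 2.87% ± 0.554 in “Mother” (SD, n = 6, 6, 5 and 6). The 3 comparisons tested gave two-sided exact permutation p of 0.407 to 0.550. The 47 cytosines of the left 5 kb were at 5.05% ± 1.55, 4.30% ± 1.17, 4.83% ± 1.19 and 4.53% ± 0.580 in the same order. None of the differences there exceeded the spread between animals (exact permutation p of 0.450 to 0.805).

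The 44 cytosines of the gene span, which all lie in the unmethylated stretch, had levels near 1%. The 6 “Attacker” animals were at 0%, 0%, 0.306%, 0.606%, 0.703% and 1.23%. The 5 “Father” animals were at 1.11%, 1.12%, 1.22%, 1.40% and 1.75%. Only Attacker 2 reached the “Father” range, while “Parental” (0.331% to 2.58%) and “Mother” (0.406% to 1.99%) covered it.

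The “Attacker” mean in the gene span was 0.475% ± 0.474 (SD, n = 6) and the “Father” mean 1.32% ± 0.266 (n = 5), a difference of -0.845 points (exact permutation test, two-sided p = 0.0173, adjusted p = 0.156 over 9 tests). The difference was thus not past the threshold after adjustment. Without Attacker 6 it was -0.811 points (exact permutation p = 0.0318). With reads pooled it was -0.544 points (exact permutation p = 0.0649), and with each animal's own cytosines -1.34 points (exact permutation p = 0.104). “Parental” (1.09% ± 0.883, n = 6) and “Mother” (1.09% ± 0.657, n = 6) did not differ from “Father” beyond their spread (exact permutation p = 0.615 and 0.481).

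The calls behind these gene-span levels, summed over the 44 cytosines, ranged from 1089 in Attacker 6 to 5615 in Father 1. Attacker 4 had 0 methylated of 2136 calls and Attacker 5 had 0 of 1632. Were each call independent, these would allow a share of up to 0.1404% and 0.184%. A read gives calls at several neighbouring cytosines, so the limits are in fact wider. Methylated reads fell on few cytosines in each animal, between 0 and 8 of the 44. At 14 of the 44 cytosines no animal had a methylated read, and the highest single value was 34.02%.

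Among the other Frizzled receptors, 7 of the 10 family members, Fzd10 included, were found by symbol in the annotation and had fully covered cytosines. Over the gene span plus 5 kb, Fzd4 (0.354% ± 0.357, SD over 23 animals), Fzd3 (0.455% ± 0.464), Fzd8 (0.787% ± 0.343) and Fzd1 (0.935% ± 0.458) were lower than Fzd10 (2.89% ± 0.704), and Fzd5 (3.88% ± 1.03) and Fzd9 (5.25% ± 1.32) were higher. Fzd10 and Fzd5 differed by less than the SD of Fzd5 over animals, as did neighbours among the 4 lowest genes. Among 8826 genes with at least 10 such cytosines, the level of Fzd10 stood at the 69.2 percentile, beside a median of 1.13%.

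**Figure D4:**
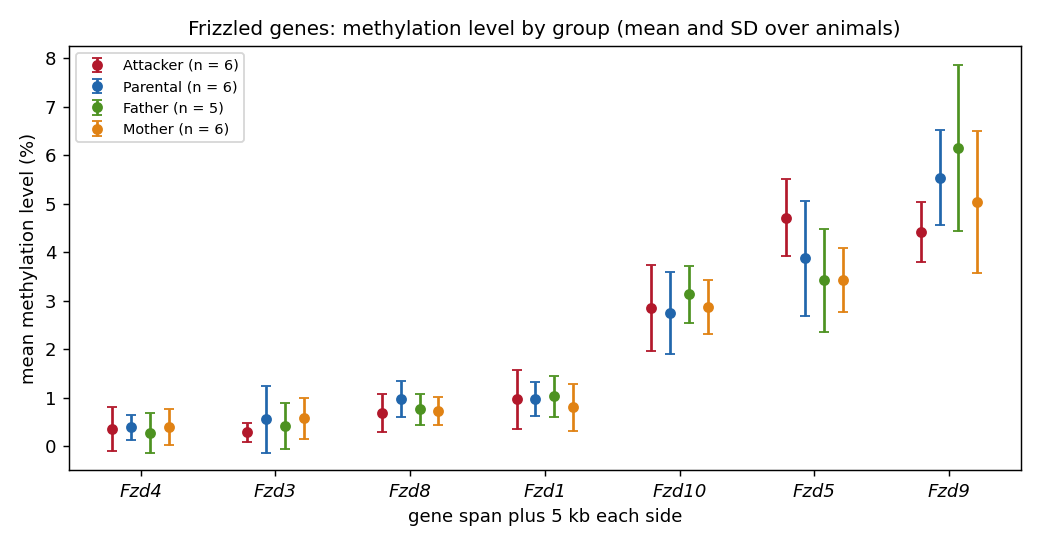
Mean methylation level (%) with SD over animals for 7 Frizzled genes (gene span plus 5 kb each side), in order of their level and coloured by group. Fzd10 lies between the 4 genes near or under 1% and Fzd5 and Fzd9, and its 4 group means lie between 2.75% and 3.13%.

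The wider Wnt pathway was read in 42 of 56 listed genes, and its calls are given as counts beside the backgrounds above. The 7 Frizzled genes had 2 of 1844 cytosines called in “Attacker” against “Parental”, 3 of 1807 in “Attacker” against “Father”, 3 of 1805 in “Parental” against “Father” and 5 of 1843 in “Father” against “Mother”. Their share, 0.108% to 0.271%, was below the background in each comparison. Ligands (14 of 19 genes found) had 0.398% to 0.656% called and intracellular members (9 of 12) 0.420% to 0.752%, also below it in each. In the same order of comparisons, co-receptors and other Wnt receptors (3 of 5) had 1.20%, 0.8801%, 0.916% and 1.28% called. Secreted inhibitors (9 of 10) had 1.11%, 1.125%, 1.33% and 1.06%. The background was 0.733%, 0.905%, 1.12% and 1.1%. Co-receptors were thus above it in “Attacker” against “Parental” and “Father” against “Mother”, and secreted inhibitors in all but “Father” against “Mother”. No test was run on these lists.

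Of the well-covered cytosines of these genes, 2 of 5872 (0.0341%), 3 of 5534 (0.0542%), 0 of 5698 and 1 of 5616 (0.0178%) passed the call in the 4 comparisons, beside 0.0373%, 0.0426%, 0.0421% and 0.0546% of all well-covered cytosines. They lay in 5 genes, and none had an adjusted p below 1. In “Attacker” against “Parental”, 2 cytosines within Sfrp1, a secreted Wnt antagonist, were higher in “Attacker” by 65.6 ± 22.3 and 61.1 ± 23.2 points (SE). In “Attacker” against “Father”, a cytosine in the ligand gene Wnt10a was lower in “Attacker” (-56.5 ± 23.96 points), and cytosines in Lef1, a nuclear partner of β-catenin, and beside Dkk4, an inhibitor that binds the Lrp co-receptors, were higher by 59.3 ± 21.7 and 43.1 ± 15.5 points. In “Father” against “Mother”, a cytosine in Tcf7, another nuclear partner, was higher in “Father” by 60.3 ± 24.6 points.

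Over the 23 animals, the genes whose level ran most like that of Fzd10 were Evi5 (Pearson r = 0.733), the adjoining genes Sdhd and Timm8b (r = 0.691 each, from the same 36 cytosines), Zgpat (r = 0.684) and Ptprt (r = 0.681). These are the highest of 8826 genes, whose r ran down to -0.660 with a median of 0.00251. The animals share a library and a depth across genes, and the mean of all such cytosines had r = 0.0986 with Fzd10.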

How the data were processed

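RRBS libraries of 23 animals were compared between 4 groups taken from the labels. The authors trimmed reads with Trim Galore, aligned them with Bismark and deposited, per cytosine, the count of reads and of methylated reads, not normalised. Total counts per animal were 64896224 to 129376223, and the median reads per cytosine was 19 to 43. The study used DSS, whose 2-group beta-binomial Wald test without smoothing was re-implemented here (numpy 2.4.6). The re-implementation was run on simulated counts with less spread between animals than the intermediate cytosines of Fzd10 had. How it performs at that larger spread was not tested. The Wald test was fitted to all cytosines with a read in both groups, and p-values were Benjamini-Hochberg adjusted over all of them. A call was a score under 0.05 for a difference over 15 points. The study instead called CpGs by a Wald p under 0.05 with a difference of 15 points, a rule given here as an alternative. It reported a CpG of Fzd10 as hypomethylated in “Attacker” against “Parental”. Neither rule called a cytosine of the window in that contrast here with the main read weights. Levels per animal used cytosines with at least 10 reads in all animals, with exact permutation tests (scipy 1.17.1, two-sided). Named were called cytosines, the CpG that chose the gene, stretches of the window, Wnt genes with a well-covered call and the 5 genes most alike by r. Alternatives were other call rules, coverage minimums, merged strands, smaller windows, pooled reads, a replicate block and each animal left out. Stretches and other read weights were added after seeing the data. The gene and all lists were chosen with earlier results of these data known. The study states that each library came from 1 animal, and the labels do not give litters. No sequence is printed, since no genome sequence was used here.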

Additional observations from a re-analysis of the deposited data

How the results depend on the processing

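Counts of Fzd10 cytosines called were 0, 1, 0 and 1 in “Attacker” against “Parental”, “Attacker” against “Father”, “Parental” against “Father” and “Father” against “Mother”. They were small and moved with the settings. By Wald p under 0.05 with a difference over 15 points they were 0, 2, 1 and 3, by adjusted p 0 in all, and with at least 10 reads in 4 animals or 5 reads in 3 animals of each group 0 in all. The gene span alone held 0 in all. With both strands merged they were 2, 1, 0 and 0, with read weights scaled over animals with reads (added after seeing the data) 8, 6, 6 and 9, beside 4.45%, 4.59%, 4.43% and 4.57% of all cytosines, and with an arcsine-link model 4, 6, 6 and 7. Leaving out 1 animal gave 0 to 5, 1 to 4, 0 to 3 and 0 to 4. For merged strands and for animals left out, the share over all cytosines was not computed. Whether those counts moved with the whole series is therefore not known. The highest were 5 without Parental 6, 4 without Attacker 6, 3 without Father 2 and 4 without Father 5. In “Attacker” against “Parental”, leaving out Attacker 1 or Attacker 4 gave 1 each. In “Attacker” against “Father” it gave 3 without Father 5, and 2 without Attacker 1, 4 or 5 or Father 1 or 4. In “Parental” against “Father” it gave 2 without Parental 1, 4 or 6, and 1 without Parental 2 or 3 or Father 1, 3 or 4. In “Father” against “Mother” it gave 3 without Father 2 or Mother 3, 0 without Mother 1, and 2 without each other animal. Cytosines called in the Wnt genes numbered 53, 50, 70 and 65 in the order above (0.514%, 0.491%, 0.695% and 0.643% of those tested, beside 0.733%, 0.905%, 1.12% and 1.1% of all cytosines), 64, 77, 94 and 86 by Wald p with a difference over 15 points, and 2, 3, 0 and 1 at well-covered cytosines.

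The level of the gene span stayed lower in “Attacker” than in “Father” under every alternative run, but its exact permutation p was above 0.05 with at least 20 reads in every animal (-1.29 points, p = 0.307), with pooled reads (-0.544 points, p = 0.0649) and with each animal's own cytosines (-1.34 points, p = 0.104). Without 1 animal it was -0.996 to -0.738 points (exact permutation p of 0.00794 to 0.0381). With at least 20 reads in every animal, “Attacker” against “Parental” in the gene span was -1.35 points. “Father” against “Mother” in the window was 0.873 points with at least 20 reads in every animal (exact permutation p = 0.0260). Small differences turned sign, in points. With pooled reads, they were 0.169 (“Parental” against “Father”, window), -0.575 (“Father” against “Mother”, window), -0.01998 (“Attacker” against “Father”, left 5 kb), -0.795 (“Father” against “Mother”, left 5 kb) and 0.0967 (“Parental” against “Father”, gene span). With each animal's own cytosines, they were 0.226 (“Attacker” against “Father”, window), 0.397 (“Parental” against “Father”, window), -0.584 (“Father” against “Mother”, window), 1.07 (“Parental” against “Father”, left 5 kb) and -0.694 (“Father” against “Mother”, left 5 kb). With strands merged, they were 0.102 (“Attacker” against “Father”, window), -0.114 (“Father” against “Mother”, window), 0.0763 (“Parental” against “Father”, left 5 kb), -0.271 (“Father” against “Mother”, left 5 kb) and -0.00615 (“Father” against “Mother”, gene span). With at least 20 reads in every animal, they were -0.510 (“Attacker” against “Father”, left 5 kb) and 0.0549 (“Parental” against “Father”, gene span), and within 2 kb of the gene -0.816 (“Attacker” against “Father”, left side). Leaving out 1 animal gave -0.161 to 0.693 for “Attacker” against “Father” and -0.0892 to 0.5998 for “Father” against “Mother” in the left 5 kb. The causes were not tested.

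Same-numbered animals did not deviate together (r of -0.0193 to 0.0521, no pair over 0.1, and 2, 0, 1 and 0 animals closest to their own number in the 4 comparisons), so the replicate numbers were not taken to pair animals. With the replicate block, the arcsine-link model called 5, 3, 4 and 6 cytosines of the window, and the share over all cytosines was not computed. With that block, “Attacker” against “Father” was -0.811 points in the gene span (exact sign-flip permutation p = 0.125, with 0.0625 the smallest that 5 pairs allow) and -0.0235 in the left 5 kb.

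At the CpG 1701 bp from the left end of the gene, the difference of “Attacker” from “Parental” ran from -81.7 to -31.7 points without 1 animal, and strands could not be merged there because the partner cytosine had no reads. Depth limits the right part of the window most: its cytosines beyond the gene had 67 to 324 calls per animal in all, and the CpG at 1701 bp had 1 to 33 reads where it was read.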

Other observations

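A cytosine inside Fzd10 was singled out after its values were seen. At chr2:18709831, 1372 bp from the left end of the gene, methylated reads were 8 of 20 in Attacker 1, 9 of 34 in Attacker 3 and 16 of 70 in Attacker 6. The remaining 20 animals, 3 of them “Attacker”, had no methylated read there. The level was 17.9% ± 17.5 (SD) over the 5 “Attacker” animals with at least 10 reads and 0% in the 14 such animals of the other groups. The direction is opposite to that of the CpG at 1701 bp, where Attacker 1 had no methylated read. The adjoining cytosine, chr2:18709832, did not show the pattern: Attacker 1 had 10 of 40 reads methylated, but Attacker 3 had 0 of 71 and Attacker 6 had 0 of 29, and methylated reads were also present in Mother 6 (22 of 60), Parental 4 (3 of 21) and Father 4 (2 of 2). No test is attached, since the cytosine was picked for this pattern and involves the contrast that chose the gene.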
